A study of Mus musculus with 4 samples.

Results

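The genes described here are 9 transcription factors of the macrophage lineage, Spi1, Cebpa, Cebpb, Cebpd, Runx1, Fli1, Ets2, Maf and Zeb2, taken by name from the 21883 protein-coding genes that RefSeq places on the mouse chromosomes used (GRCm38.p6, the assembly that mm10 names). ChIP-seq of the Mediator subunit MED1 was done in RAW 264.7 cells, a macrophage-like line derived from a mouse tumour induced by Abelson leukaemia virus. The 4 libraries came from untreated cells (2 libraries) and from cells given LPS, the bacterial endotoxin sensed by Toll-like receptor 4, for 2 h (2 libraries), with a dose of 10 ng/mL in the sample labels and 100 ng/mL in the treatment protocol. The deposited list gives genome intervals with no height, no significance and no assignment to a library or condition. Untreated and LPS-treated cells could therefore not be compared, depth is unknown, and none of the counts and widths below has a replicate error or a test.

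Mediator links factors bound at enhancers and promoters to RNA polymerase II, and dense MED1 occupancy is widely used to mark the enhancers of genes that define a cell type. PU.1 (Spi1) and the C/EBP factors open and maintain macrophage enhancers, RUNX1 and the ETS factors act beside them, and C/EBP beta and C/EBP delta are also induced by inflammatory signals. Several of these factors are known to bind the enhancers of their own genes.

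Of the 9 genes, 8 had at least one MED1 region overlapping the gene body, and Maf had none within 100 kb, a distance at which 77.1% of all genes had one. A region here is a run of deposited intervals that abut, joined end to end. It was counted for a gene when it overlapped the gene or had its midpoint no more than 50 kb from one of the ends. By this rule 57 distinct regions, covering 232.5 kb, belonged to the 8 genes, and no region was shared by 2 of them. Among all protein-coding genes, 70.6% had such a region and 50.6% had one overlapping the gene, so presence of a region alone is common. The number per gene ranged from 0 at Maf and 3 at Cebpd to 15 at Runx1, with a median of 5, against a median of 2 (quartiles 0 and 5) over all genes. At least 5 regions were found at 7 of the 9 genes and at 25.2% of all genes. Of the 7, Spi1, Fli1 and Ets2 had exactly 5, and the 7 became 4 when regions at most 500 bp apart were merged (23.3% of all genes) and also 4 when regions of 1 interval were left out (12.2%).

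**Figure D1:**
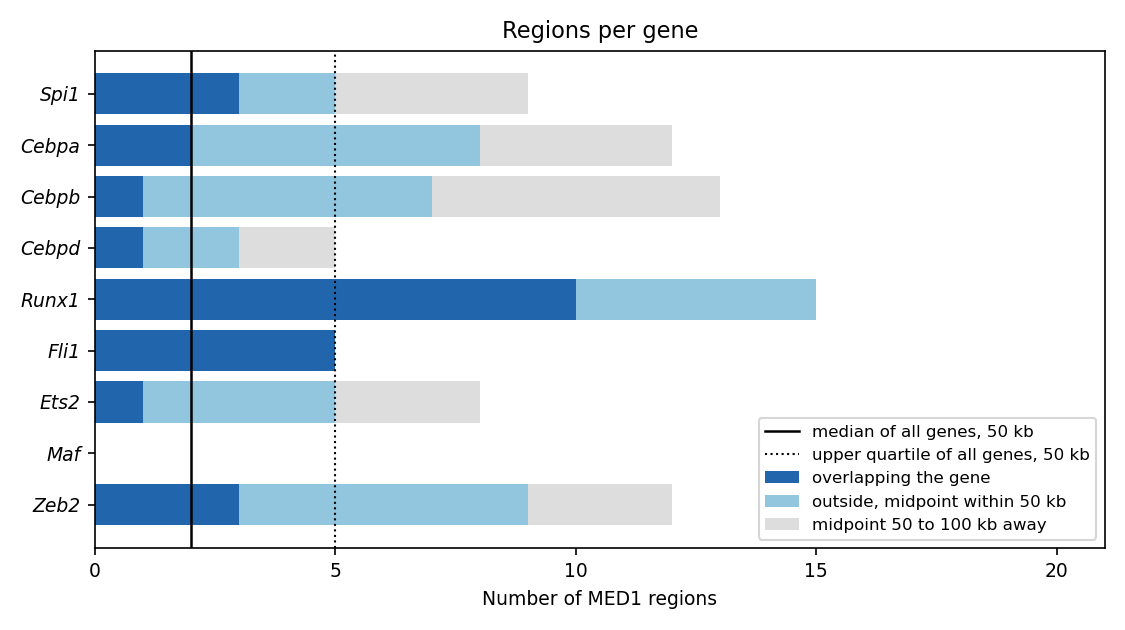
Number of MED1 regions at each of the 9 genes, split into regions overlapping the gene, regions outside it with a midpoint within 50 kb, and regions with a midpoint 50 to 100 kb away. Lines mark the median (2) and upper quartile (5) of all protein-coding genes within 50 kb. Runx1 reaches 15 within 50 kb and Maf has none.

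The counts depend on gene length and on neighbouring genes, which differ widely in this group. Of the 57 regions, 47 had the counted gene as the nearest protein-coding gene to their midpoint. Runx1, Cebpa, Ets2, Maf and Zeb2 had no other protein-coding gene within 50 kb, whereas Spi1 had 5 and Cebpd had 3. Scaled to the length of the window searched, Cebpa had the highest density of the 9, with 7.79 regions per 100 kb, followed by Cebpb with 6.90. A density as high as that of Cebpa was reached by 2.2% of all genes, whose median was 1.64 per 100 kb. Fli1 had 2.26 per 100 kb, which 39.8% of all genes reached. Just inside the 50 kb limit lay a region of 968 bp whose midpoint was 48.2 kb beyond Runx1, and just outside it one of 925 bp, 50.3 kb beyond Cebpb.

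**Figure D2:**
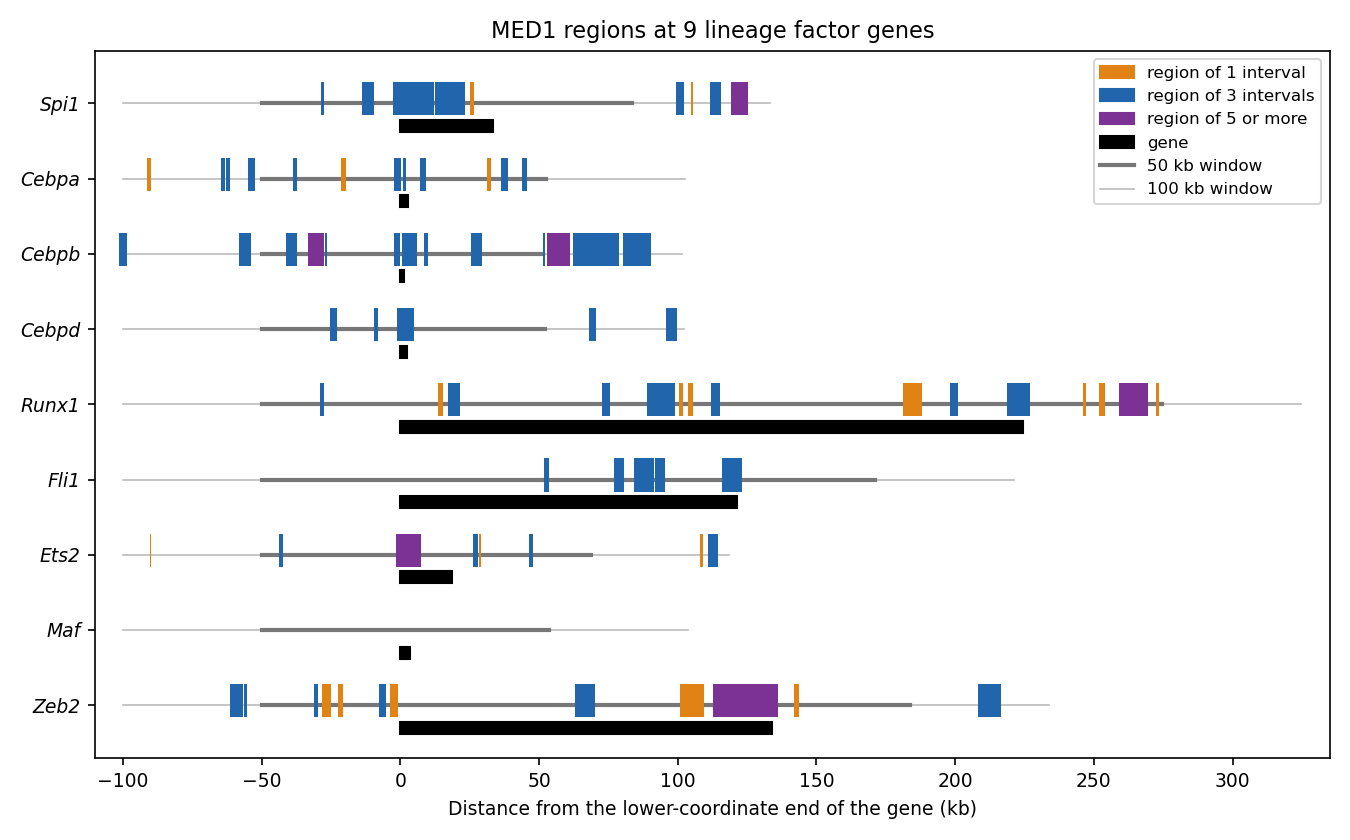
Position and width of MED1 regions (coloured bars, by number of deposited intervals) within 100 kb of each gene, drawn along the genome coordinate in kb from the lower-coordinate end of the gene (black bar). Regions cover most of Spi1 and are scattered along Runx1, with long gaps, over 18.7% of its length. At Fli1 every region overlaps the gene, and at Maf there is none.

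Spi1 encodes PU.1, the ETS-family factor required for myeloid development. The gene (chr2:91082374-91115759, 33386 bp) was covered by MED1 regions over 73.5% of its length, a share that 2.70% of all genes reached. The widest of its 5 regions, chr2:91079610-91094364, measured 14755 bp and ran from 2764 bp below the lower-coordinate end of the gene to 11990 bp above it. Only 0.780% of all 22570 regions were as wide. A second region of 10842 bp followed inside the gene, and another of 1720 bp lay further in. The remaining pair lay below the gene, with midpoints 11.6 kb and 28.0 kb away. The nearer of these, 4440 bp wide, overlapped the zinc transporter gene Slc39a13 and the lncRNA Gm39874. Spi1 is known to be driven by an upstream enhancer that PU.1 itself binds, and whether one of these regions is that element was not tested. Between 50 and 100 kb, 4 further regions (609 to 6382 bp) lay at Madd, Acp2 and Nr1h3, the last encoding the liver X receptor alpha, and were nearer to those genes than to Spi1. With gaps of up to 12.5 kb bridged, 4 of the regions formed a cluster of 31.8 kb covered length, number 120 of 13554 clusters by that length.

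Runx1 encodes the DNA-binding partner of CBF beta and is transcribed from a distal and a proximal promoter far apart within one long gene. The gene (chr16:92601466-92826074, 224609 bp, reverse strand) had 15 regions, 10 overlapping it, and 0.128% of all genes had as many. Per 100 kb of window its density of 4.62 was reached by 15.1% of genes. Both promoters lay under wide regions. The distal start was covered by a region of 8154 bp (chr16:92820303-92828456), and the proximal start, 128.7 kb further along the gene, by a region of 10008 bp (chr16:92690353-92700360). Between the starts stood 5 regions. The first after the distal start were one of 3084 bp, its midpoint 25.1 kb along the gene, and one of 6820 bp at 40.1 kb. Regions of 3433, 1792 and 1604 bp, with midpoints at 110.9, 119.9 and 123.5 kb, came shortly before the proximal start and made a cluster covering 16.8 kb together with the region over it. An enhancer between the promoters is known to act in blood cells, and whether any of the 5 regions is that element was not tested. Upstream of the distal start lay 4 regions with midpoints 21.96, 28.3, 39.7 and 48.2 kb away, the widest of 10189 bp. All 15 had Runx1 as the nearest protein-coding gene, and the nearest such neighbour, Clic6, lay 60.2 kb away.

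The 250 bases before each Runx1 start are shown because both starts lay wholly under MED1 regions and differ in base composition. Letters come from RefSeq (GRCm38.p6), read along the gene, with capitals marking matches to the motifs named below. The distal window is chr16:92826075-92826324 and the proximal one is chr16:92697330-92697579, both on the reverse strand.
Runx1 distal: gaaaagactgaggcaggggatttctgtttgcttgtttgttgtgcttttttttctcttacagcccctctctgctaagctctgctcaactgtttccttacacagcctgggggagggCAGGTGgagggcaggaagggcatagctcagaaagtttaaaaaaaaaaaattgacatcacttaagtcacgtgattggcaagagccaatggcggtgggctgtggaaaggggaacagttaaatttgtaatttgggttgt
Runx1 proximal: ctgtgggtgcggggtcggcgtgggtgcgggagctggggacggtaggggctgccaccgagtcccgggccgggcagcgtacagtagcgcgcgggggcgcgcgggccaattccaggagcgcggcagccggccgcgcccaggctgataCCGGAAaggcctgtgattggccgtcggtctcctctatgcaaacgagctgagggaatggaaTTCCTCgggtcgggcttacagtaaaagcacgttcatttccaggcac
The distal window held 45.6% G and C and the proximal one 67.6%, against a median of 52.4% over 32851 promoter windows. In the distal window the capitals mark CAGGTG, the ZEB type of E-box. In the proximal window they mark CCGGAA, an ETS type of site, and TTCCTC, the reverse complement of the PU.1 type GAGGAA.

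Cebpa encodes C/EBP alpha, needed for the step from common myeloid progenitors to granulocyte and monocyte progenitors. Its 8 regions were narrow, between 1352 and 2814 bp, close to the median of 1948 bp (quartiles 1302 and 3012 bp) over all regions. The short gene of 2636 bp (chr7:35119293-35121928, forward strand) carried a region of 2814 bp over its start and one of 1352 bp inside it. Along the strand, 4 regions followed the gene, with midpoints 8.26, 31.9, 37.7 and 44.8 kb after the start. A distal enhancer downstream of Cebpa is known to act in myeloid cells, and whether one of these regions is that element was not tested. No other protein-coding gene lay within 50 kb. The closest, Gm45095, was 61.6 kb below, next to Cebpg, which encodes the related factor C/EBP gamma. Regions of 1471 and 1817 bp, 38.1 and 20.3 kb before the Cebpa start, were counted for Cebpg as well. The one of 1471 bp was nearer to Gm45095 than to Cebpa. The regions 37.7 and 44.8 kb after the Cebpa start were nearer to Slc7a10 than to Cebpa.

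Cebpb encodes C/EBP beta, which is induced by LPS and drives inflammatory genes. It had 7 regions within 50 kb and 13 within 100 kb. The annotated start of this short gene (chr2:167688915-167690432, forward strand, 1518 bp) was not itself under a region. It lay in a gap of 908 bases between a region of 2122 bp, which ended 200 bp before the start, and one of 5413 bp, which began 709 bp after it and ran beyond the end of the gene over the lncRNA A530013C23Rik. The longest covered stretch near Cebpb lay between 50 and 100 kb from the gene. There 4 regions of 925, 8437, 16344 and 10214 bp formed a cluster that covered 35.9 kb (chr2:167740228-167779298), number 85 of 13554 clusters by covered length. Cebpb was the nearest protein-coding gene to all 4, and the next one above, Ptpn1, lay 240.3 kb from Cebpb. Only lncRNA genes (Gm52570, Gm32287 and Gm14321) were annotated under these regions. The 50 kb window leaves this cluster out. The 3 regions below the gene between 26.7 and 39.1 kb were nearer to Tmem189 than to Cebpb.

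Cebpd encodes C/EBP delta, a further inflammatory member of the family. It had only 3 regions, a number that 46.1% of all genes reached. One region of 6155 bp (chr16:15886043-15892197) covered the entire gene of 2260 bp with 1243 bp below it and 2652 bp above it. The DNA repair gene Spidr overlaps Cebpd at its upper end in the annotation and lay partly under the same region. The others measured 1338 and 2515 bp, the latter at Mzt2.

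The 250 bases before the Cebpa and Cebpb starts are shown because the first lay wholly under a region and the second had only 51 bases under one. They are chr7:35119043-35119292 and chr2:167688665-167688914, on the forward strand.
Cebpa: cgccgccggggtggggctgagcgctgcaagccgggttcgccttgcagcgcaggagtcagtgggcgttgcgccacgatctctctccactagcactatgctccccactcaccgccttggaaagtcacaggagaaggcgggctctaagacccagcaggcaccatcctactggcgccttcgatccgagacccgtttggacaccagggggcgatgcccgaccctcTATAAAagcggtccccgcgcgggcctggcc
Cebpb: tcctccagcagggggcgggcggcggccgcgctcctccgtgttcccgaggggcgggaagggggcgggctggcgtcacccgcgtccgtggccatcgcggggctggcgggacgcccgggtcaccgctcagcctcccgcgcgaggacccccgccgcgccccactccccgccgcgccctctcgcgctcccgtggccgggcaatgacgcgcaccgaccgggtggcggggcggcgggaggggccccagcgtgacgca
The Cebpa window held a TATA box, TATAAA, whose first base stood 30 bases before the start (capitals). None of the motifs searched was found in the Cebpb window. Its G and C content of 81.6% was reached by 0.746% of all promoter windows, and whether base composition bears on the gap in MED1 regions at this start was not tested.

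Fli1 and Ets2 encode ETS-family factors, and each lies beside a paralogue in the genome. Fli1 (chr9:32422204-32543432, 121229 bp) had 5 regions and all overlapped the gene. They measured 1818 to 7087 bp, and the one of 6926 bp covered the upper-coordinate end of the gene. Outside Fli1 the next midpoints were 1036 kb below and 1349 kb above. Stretches without a region as long as these 2 made up 2.05% and 1.57% of all stretches between neighbouring regions. Ets1, the paralogue 92.8 kb above Fli1, lay in the upper of them with no region over it or within 50 kb of it. Kcnj1, the closest protein-coding neighbour at 23.0 kb below, lay in the other. The shares of 2.05% and 1.57% count stretches, short and long alike, and not genes or bases.

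Ets2, a factor activated by MAP kinase signalling in macrophages, also had 5 regions. One of 9028 bp (chr16:95701009-95710036) covered the start and 40.9% of the gene (chr16:95702407-95721049, forward strand), and the others outside it measured 833 to 1864 bp. Erg, its paralogue 115.8 kb below, had 1 region within 50 kb, of 604 bp, and none over the gene. Further along the strand, at 89.9 and 94.1 kb above Ets2, lay regions of 1141 and 3534 bp. They belonged to a cluster of 3 regions covering 22.3 kb, number 267 by covered length. The rest of that covered length came from a region beyond 100 kb from Ets2. In both pairs of neighbouring ETS genes, a region overlapped the gene among the 9 and none overlapped the paralogue. Of all genes, 50.6% had an overlapping region, and the 9 were chosen with earlier results of these data known.

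Zeb2 encodes a zinc-finger E-box repressor known for its part in keeping macrophage identity. It held the widest region of the group, 23632 bp (chr2:45096096-45119727), and 42 of all 22570 regions were at least as wide. This region covered the 4 annotated starts listed for the gene, which span 7.17 kb at its upper-coordinate end (chr2:44983512-45117442, reverse strand), and part of the antisense transcript gene Zeb2os. Regions of 8664 and 7523 bp lay further inside the gene. Below it, beyond the end of transcription, 5 regions of 1231 to 3196 bp stood within 30.4 kb, and above it 1 region of 1736 bp stood 8.78 kb before the first start. The cluster at the starts covered 34.0 kb and was number 101 by covered length. The closest protein-coding gene, Gtdc1, was 55.8 kb away.

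The 250 bases before the first Zeb2 start (chr2:45117443-45117692, reverse strand) are shown because they lay under this widest region and hold 2 motif matches. The matches are of the PU.1 and C/EBP types, which 23.3% and 9.56% of all promoter windows held.
Zeb2: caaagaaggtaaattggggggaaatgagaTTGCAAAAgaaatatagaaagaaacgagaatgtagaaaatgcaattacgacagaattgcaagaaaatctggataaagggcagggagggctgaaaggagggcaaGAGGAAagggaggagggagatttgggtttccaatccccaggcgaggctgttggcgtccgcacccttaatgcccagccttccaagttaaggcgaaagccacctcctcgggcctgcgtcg
The capitals mark TTGCAAAA, a match to the C/EBP type TTGCNNAA, which began 221 bases before the start, and GAGGAA, the PU.1 type, which began 118 bases before it. Each of the other 3 Zeb2 windows also held GAGGAA, though 2 of them overlap and share the match. The one at the start 7.17 kb further in held TGAGTCA and TGACTCA, both of the AP-1 type.

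Motifs were searched on both strands in the 9 windows that RefSeq's promoter table lists for Cebpa, Cebpb, Runx1, Ets2 and Zeb2. No window is shown for Spi1, Cebpd, Fli1 and Maf. Of all 32851 windows, 23.3% held GAGGAA, 12.0% CCGGAA, 9.56% TTGCNNAA, 14% TGTGGT (RUNX type), 6.75% TGANTCA (AP-1 type), 17.2% CAGGTG, 12.4% TATAAA, 2.98% the ISRE type and 1.21% the NF-kB type. The RUNX, NF-kB and ISRE letters were found in none of the 9, and the Ets2 window held none of the motifs. A match describes the letters and does not show a bound site. The start itself lay under a MED1 region in 8 of the 9 windows, Cebpb being the exception, against 31.5% of all windows, and the 4 Zeb2 starts share one region.

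Maf encodes c-Maf, a bZIP factor of macrophages that is known to restrain their proliferation. No region lay over the gene (chr8:115703253-115706894) or within 100 kb, as for 22.9% of all genes. The closest midpoints were 280.2 kb below, nearest to Wwox, and 845.1 kb above. The stretch of 1126 kb without a region that holds Maf was matched or exceeded in length by 443 of 22549 such stretches (1.96%). That share counts stretches, short and long alike. The share of genes or bases lying in stretches this long was not computed. Protein-coding genes are sparse around Maf, with Wwox 350.5 kb below and Dynlrb2 798.1 kb above.

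Regions overlapping these genes were wide. The 26 overlapping regions had a median width of 4930 bp (1352 to 23632 bp), and the 31 others within 50 kb had a median of 1864 bp (833 to 10189 bp). Over the whole list, regions overlapping a protein-coding gene had a median of 2034 bp and those outside genes 1721 bp. At a limit of 5 kb, chosen after the widths were seen, 13 of the 26 overlapping regions and 2 of the 31 others were at least that wide. Over the whole list, 10.3% of regions overlapping a protein-coding gene and 8.18% of those outside all such genes were. The outside sets are not alike. The 31 lay outside the counted gene only, and some overlapped another protein-coding gene, as the Cebpb region of 5475 bp did at Tmem189. The overlapping regions of 5 kb or more were spread over 7 genes, all of the 8 except Cebpa.

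The count of gene ends depended on the rule used. A region overlapped the 1 kb on either side of a gene end at 8 of the 9 genes and at 45.5% of all genes. It did so at both ends of Cebpa, Cebpb, Cebpd and Zeb2, a pattern found at 7.17% of all genes and one that short genes reach more easily. When the midpoint of the region had to lie within 1 kb of the end, only Cebpd still qualified, while 36.8% of all genes did. The median width was 6155 bp for the 11 regions overlapping these 1 kb windows at the 9 genes, and 2144 bp for the 9250 at any protein-coding gene. Some of the 11, such as the Cebpb region of 2122 bp, came within 1 kb of an end without covering it. The Spi1 and Ets2 regions had their midpoints 4.61 and 3.12 kb from the end they covered, and the Zeb2 region 9.53 kb.

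The deposited intervals within a region were unequal in width. Of the 57 regions, 37 (64.9%) were made of 3 abutting intervals, 16 (28.1%) of 1, and 4 (7.02%) of 5 or more, against 60.4%, 35.3% and 3.82% of all regions. In 36 of the 37 regions of 3 intervals the middle interval was the widest, and it held a median of 74.0% of the width (all regions of 3 intervals: widest in 92.4%, median 78.5%). The exception was the Fli1 region of 7087 bp, with intervals of 671, 3014 and 3402 bp. At Spi1 the middle interval took 14190 of 14755 bp, at Cebpd 5382 of 6155 bp, and at the distal Runx1 start 4321 of 8154 bp. The Ets2 region over the start was divided more evenly, into 404, 3509, 3071, 1164 and 880 bp. Single intervals made up 7 of the 15 Runx1 regions and 5 of the 9 Zeb2 regions, and none of those at Cebpb, Cebpd and Fli1. What a boundary between abutting intervals stands for is not given in the sources used here.

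**Figure D3:**
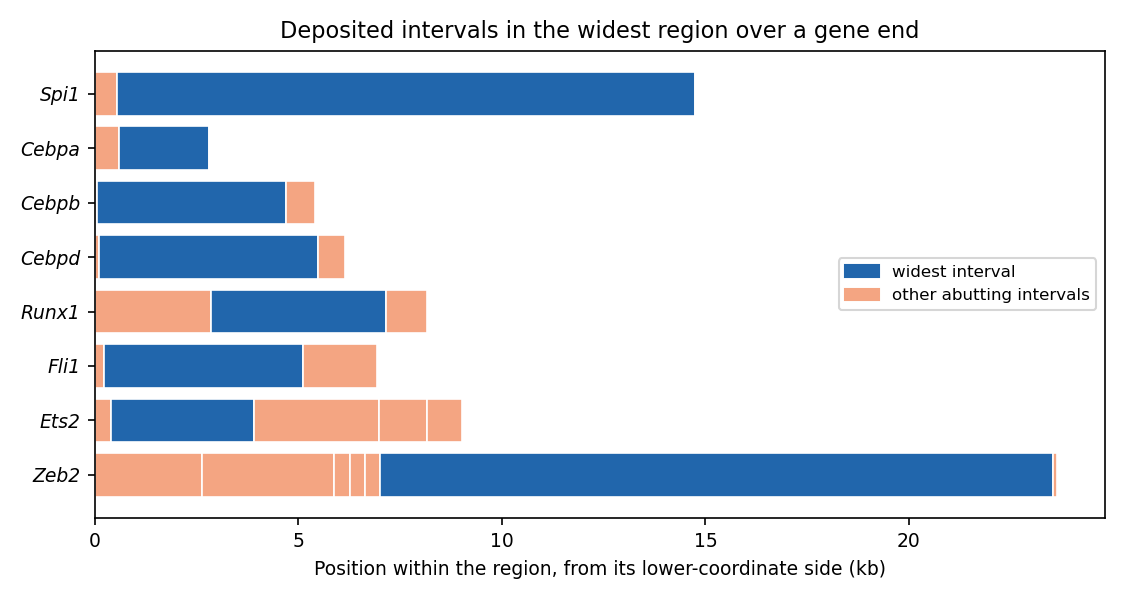
Deposited intervals that make up the widest region over an end of each gene with one, in kb from the lower-coordinate side of the region. The widest interval (blue) spans nearly all of the Spi1 region and 38.9% of the Ets2 region.

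Other genes of the same families and further lineage factors were counted in the same way. Of 39 such genes, 34 (87.2%) had a region within 50 kb, as did 70.6% of all genes, and 27 had one overlapping the gene, as did 50.6%. Their median of 5 regions per gene equalled that of the 9 genes. The C/EBP relatives had 5 at Cebpe, 6 at Cebpg and 9 at Ddit3, which encodes the stress factor CHOP. Among ETS genes, Etv6 had 13 and Elk3 had 11, more than the 5 each of Spi1, Fli1 and Ets2, while their widest regions, 6.80 and 5.33 kb, were narrower than the widest at any of these 3. The RUNX paralogues had fewer than Runx1, with 8 at Runx2 and 6 at Runx3, and Zeb1 had 1 region of 0.560 kb where Zeb2 had 9. Mafg had 10 and Maff 9, both small MAF factors, and Mafa had 0. Of the other lineage factors, Mef2c had 10, and Irf8 and Ikzf1 had 9 each. Wide regions were not limited to the 9 genes. The widest region within 50 kb measured 16.7 kb at Mitf, 12.4 kb at Mef2c, 9.45 kb at Ddit3 and 9.17 kb at Mafg. The Ddit3 region was wider than any within 50 kb of Cebpa, Cebpb or Cebpd. At the remaining relatives the widest region was at most 7.27 kb (Ikzf1). No region lay within 50 kb of Ets1, Mafa, Myb, Gata2 or Ebf1. Cebpe, Cebpg, Runx2, Runx3, Zeb1, Erg and Mitf were named after their values were seen.

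**Figure D4:**
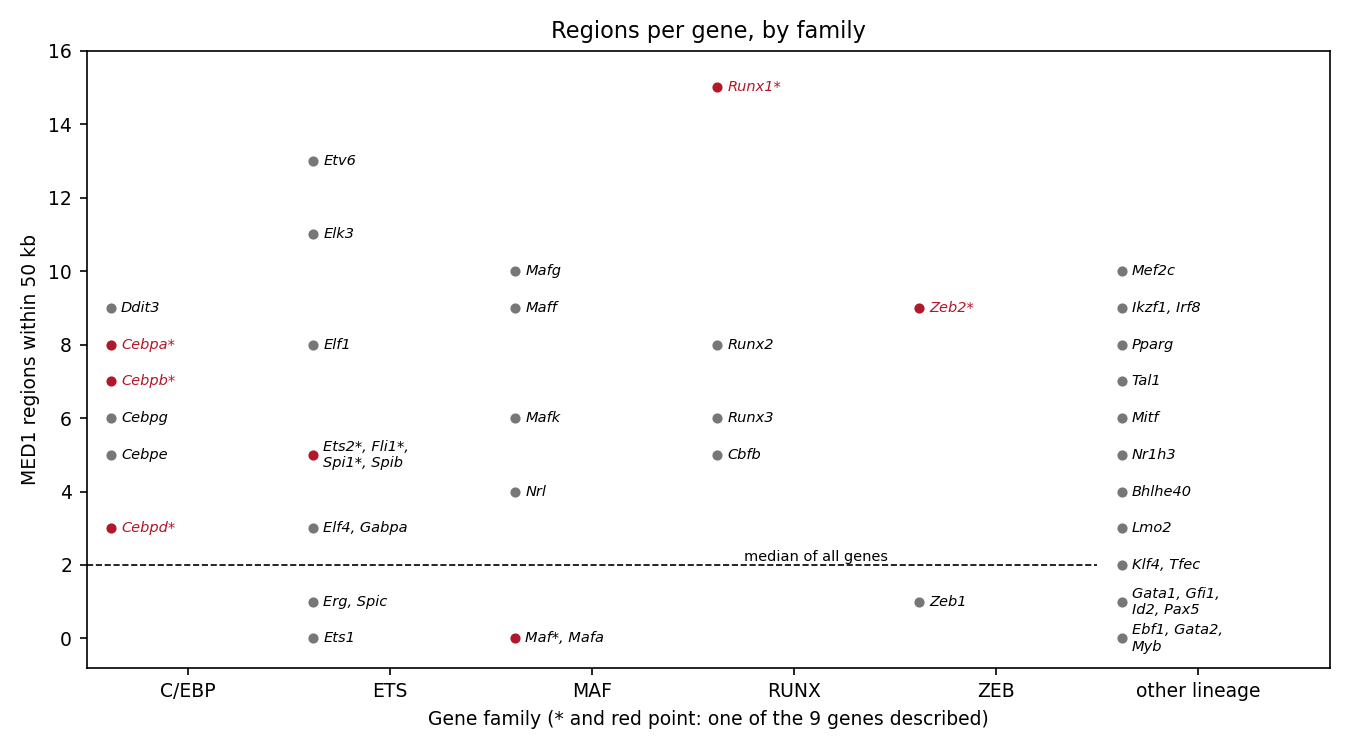
MED1 regions within 50 kb for the 9 genes (starred, red points) and 39 other genes of their families or of blood lineages. The dashed line is the median of all protein-coding genes (2). Runx1 lies above its paralogues and Zeb2 above Zeb1, while Maf and Mafa have 0.

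The cell type label was checked on marker genes. All 10 macrophage markers, among them Adgre1, Csf1r and Lyz2, had a region overlapping the gene, as did 50.6% of all genes. Of 18 markers of T cells, B cells, hepatocytes, neurons and muscle, 2 did, both T cell genes, although 12 of the 18 had a region within 50 kb, where 70.6% of all genes had one.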

How the data were processed

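MED1 ChIP-seq libraries (4) were made, per the labels' protocols, from cells fixed with DSG and formaldehyde. Bowtie, SAMtools, MACS2 2.2.6 and mm10 are named in the submitters' processing notes. Nothing on calling settings, control libraries or pooling is given in the sources consulted. The list holds 53764 intervals (start and end in bp), and the score deposited by the authors is 0 throughout. It has 0 columns of other samples. Of the intervals, 31192 began where the preceding one ended and were joined, giving 22570 regions on chromosomes 1 to 19, X and Y after 4 mitochondrial intervals were left out. Coordinates are 1-based. Gene positions, strands of 5 genes and promoter sequences came from RefSeq (GRCm38.p6). Clusters bridge gaps of at most 12.5 kb. No test was made. The 9 genes and the comparison lists were chosen with earlier results of these data known. Named relatives were those with the most regions (ties included) and those without one, and 1 gene of the planned list is not reported here. The planned comparison of conditions was not possible. Joining and counting were tested on simulated data. Python 3.11.15, numpy 2.4.6, pandas 2.3.3 and matplotlib 3.10.9 were used.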

Additional observations from a re-analysis of the deposited data

How the results depend on the processing

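No paired analysis was possible because the list carries no values per library, and leaving out single libraries could not be run for the same reason. Counts of 8 of 9 genes with a region within 50 kb held under all 7 alternatives tried (all genes 56% to 77.1%). The count of 34 of 39 relatives ranged from 28 with 10 kb (all genes 57.9%) to 38 with 100 kb (77.1%). The 8 genes with a region over an end became 1 when the midpoint had to lie within the window (all genes 36.8%). They stayed 8 under the other 5 alternatives (all genes 28.3% to 48.4%). At the genes that dropped out, the closest midpoint lay between 1.01 kb (Cebpa) and 4.61 kb (Spi1) from an end, outside the 1 kb limit. The 7 genes with at least 5 regions became 4 with regions at most 500 bp apart merged (all genes 23.3%) and 4 with regions of 1 interval left out (12.2%). They became 3 with a window of 10 kb (3.35%) and 3 among wider regions (7.39%). The other 3 alternatives gave 7 with any overlap with the window (25.9%), 8 with 100 kb (44.5%) and 8 with unjoined intervals (52.6%). These alternatives for the 7 genes were added after seeing the data. The 57 regions became 34 with a window of 10 kb, 34 when only regions of median width or more were kept and 150 with unjoined intervals. The median of 5 per gene became 3 with 10 kb (all genes 1), 9 with 100 kb (all genes 4), 3 among wider regions (all genes 1) and 15 with unjoined intervals (all genes 5), each by construction of the count. Depth is unknown and limits of detection could not be given.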

Other observations

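Of all 22570 regions, 138 (0.611%) were made of an even number of abutting intervals, and none of the 57 regions at the 9 genes was. Each of the 57 thus held 1, 3, 5 or 7 intervals.

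Several regions assigned to these genes lay over annotated non-coding genes. Those at Cebpa included one of 2482 bp over the lncRNA Gm35889 and one of 2015 bp over Gm38988, and the cluster above Cebpb lay over Gm52570, Gm32287 and Gm14321. The Zeb2 region of 23632 bp reached Zeb2os. The list has no strand, so occupancy at overlapping genes cannot be told apart.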
